A study of Mus musculus with 577 samples.

Results

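Granulosa cells, the somatic cells that surround and nourish the oocyte of an ovarian follicle, were cut singly from formalin-fixed mouse ovary sections and sequenced. The cells described here are the 24 granulosa cells of the sections fixed for 24 h, out of 577 samples in the series. GEO's class label divides them into 12 neighboring cells, which lay next to the oocyte, and 12 non-neighboring cells, which lay farther out in the follicle. The label alone chose them, and no measured value was used. Ovaries of 8-week-old female mice had been snap-frozen, cut into 15 µm sections, fixed in 10% neutral buffered formalin at room temperature and stained with cresyl violet. Follicles were judged normal by morphology. The study took oocytes from primary to early antral follicles. For granulosa cells it names secondary to early antral follicles, stated for alcohol-fixed sections. Cells were isolated by laser capture microdissection (LCM), in which a laser cuts a chosen cell out of the section. DRaqL is a lysis that dissolves the fixed cell with a detergent and then quenches that detergent so that cDNA can be made in the same tube. For formalin-fixed cells it was combined with a protease digestion and a Smart-seq2-type amplification, which starts from the poly(A) tail. The 12 oocytes of the same treatment, 5 of primary and 7 of secondary to antral follicles, are used below as a reference for oocyte RNA.

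The labels name no mouse, ovary or follicle for any cell, and per the study its amplification methods were compared on sections of a single ovary. Each position therefore counts as 1 sample, cells are not replicates of it, and no test, p-value or standard error is given for the difference between positions. Each SD below is a spread over 12 cells of 1 position, and the 2 library pools (pool 4 and pool 5, 6 cells of each position in each) are given side by side in place of a replicate check. Within each pool the neighboring cells carried one block of in-line indexes and the non-neighboring cells another, so position and index cannot be told apart.

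Granulosa cells and the oocyte depend on each other. The oocyte secretes GDF9 and BMP15, which act on granulosa cells through TGF-β family receptors and SMAD proteins. Granulosa cells pass pyruvate, amino acids and sterols to the oocyte, partly through gap junctions at the tips of long projections that cross the zona pellucida, because the oocyte itself uses glucose poorly. Granulosa cells away from the oocyte are known for steroid synthesis and for their response to follicle-stimulating hormone. Outside the basement membrane lie the theca cells, which make androgens and collagen.

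Values are reads per 1000000 reads on protein-coding genes (RPM), shown as log2(RPM+1). Reads on protein-coding genes numbered 65219 to 873319 per neighboring cell (median 204878.5) and 55319 to 393257 per non-neighboring cell (median 142064.5). Protein-coding genes with at least 1 read numbered 8429 ± 1336 (SD, n = 12) in neighboring and 7685.5 ± 1302 in non-neighboring cells. After thinning every cell to 55319 reads these became 6211.5 ± 345 and 5980.5 ± 588, a gap smaller than the larger SD. Mitochondrial protein-coding genes took 4.71% ± 1.19 of the reads in neighboring and 4.03% ± 1.32 in non-neighboring cells. Reads per ERCC spike-in read, a measure of how much RNA a cell gave, had medians of 1.13 (0.188 to 2.34) and 1.17 (0.654 to 3.68).

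Both positions carried the granulosa programme that their label names. Inha, the α subunit of the hormone inhibin, was read in every one of the 24 cells, at 11.05 ± 0.61 next to the oocyte and 10.98 ± 0.62 farther out. Of 18 genes of granulosa identity, 17 were detected among the neighboring cells and 18 among the non-neighboring cells. Cyp19a1, the aromatase of estradiol synthesis, was the missing one, and gave 1 read in 1 non-neighboring cell. Detected means at least 1 read in some cell, and Kitl counted with reads in 3 cells of each position. By that rule all 14 oocyte genes were detected at each position too, so the count alone does not mark a cell type. The summed level of the 18 genes was 6396 to 16590 RPM per neighboring cell and 6849 to 15943 RPM per non-neighboring cell, against 1134 to 2516 RPM in the oocytes. Fst, the activin-binding follistatin, Esr2, the estrogen receptor β, Nr5a2, a nuclear receptor, and Fshr, the receptor of follicle-stimulating hormone, were present in every cell. None of the 17 identity genes above 4 in any cell differed by more than 1.8. Few of all genes did, with 5.31% passing on the neighboring and 2.31% on the non-neighboring side. Differences of the 17 ran from -1.78 (Inhba) to 1.66 (Hsd17b1), with a median of -0.09. Of the 4 endothelial markers, Cdh5 stood at 4.73 and 3.57 in neighboring and non-neighboring cells and Pecam1 at 2.78 and 2.35. Kdr (0.23 and 0.41) and Tie1 (0 and 0.31) were low and leaned the other way. Of 8 blood and immune genes, 6 were detected in neighboring and 2 in non-neighboring cells, with C1qa and Hbb-bt at 0 in all. Their sum was 0 to 118 RPM in neighboring cells and 0 to 659 RPM in non-neighboring cells, the highest being replicate 12.

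A gene was counted when its mean log2(RPM+1) differed by more than 1.8 between positions and exceeded 4 in at least 1 cell, which is the size criterion of the study without its p-value. Of 14088 genes above 4 in some cell, 748 (5.31%) were higher in neighboring cells by that measure and 326 (2.31%) were higher in non-neighboring cells. Both pools passed the size for 269 genes (1.91%) on the neighboring side and for 0.767% of genes on the non-neighboring side. A difference of any size pointed to the neighboring side for 55.5% of genes, and the median over all genes was 0.14. For no gene were the 12 cells of one position all above the 12 of the other (0%). Across genes, the differences of the 2 pools had a correlation of 0.07, a description over genes that share libraries. Whole profiles of cells from the same position resembled each other little more than those from different positions. The median rank correlation was 0.478 over 132 pairs of cells from the same position and 0.472 over 144 pairs from different positions, and the SD over pairs was 0.0412 and 0.0379. The differences described next are those of single genes and small groups.

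**Figure D1:**
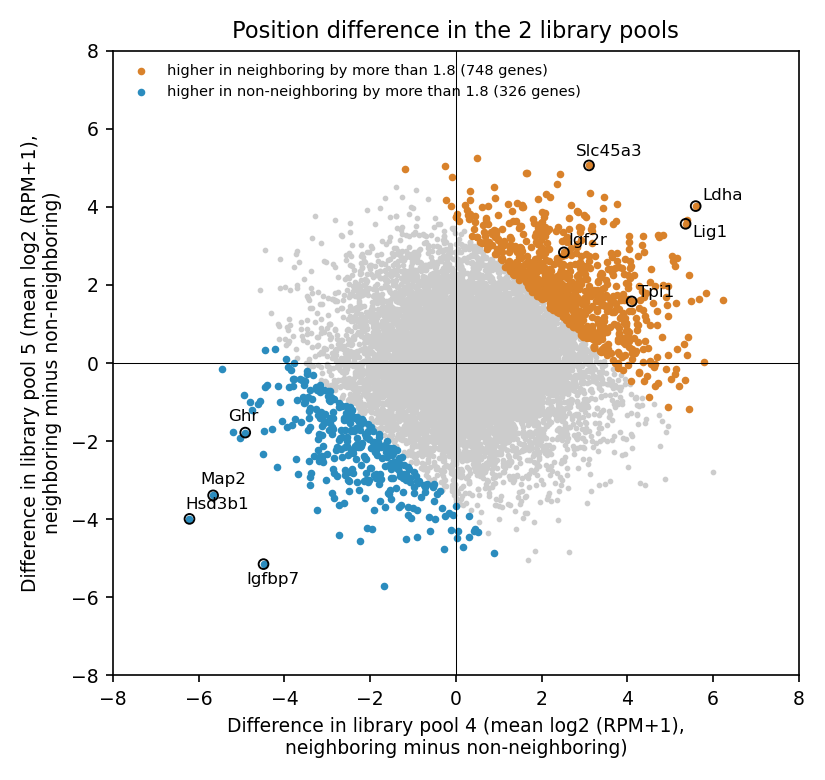
Difference of mean log2(RPM+1), neighboring minus non-neighboring, in library pool 4 (x axis) against pool 5 (y axis), 1 point per gene above 4 in at least 1 cell. Most points form a cloud without a slope (correlation 0.07), while Ldha lies far to the neighboring side and Hsd3b1 and Igfbp7 far to the non-neighboring side in both pools.

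Ldha and Hsd3b1 had the most extreme difference on either side. Ldha (ENSMUSG00000063229, GRCm38 chr7:46841475-46855627, plus strand) encodes lactate dehydrogenase A, which interconverts pyruvate and lactate at the end of sugar breakdown. Hsd3b1 (ENSMUSG00000027871, chr3:98852194-98859794, minus strand) encodes 3β-hydroxysteroid dehydrogenase, which turns pregnenolone into progesterone. The 250 bases before each RefSeq start in GRCm38.p6 are shown because 2 motifs tied to these pathways were looked for in them, the hypoxia response core ACGTG and the half-site AAGGTCA of the NR5A receptors, each on both strands. Capitals mark each core, on either strand. The Ldha window, the first of 2 RefSeq starts, is chr7:46845554-46845803 on the plus strand, and the Hsd3b1 window is chr3:98859795-98860044, written along the minus strand.
Ldha: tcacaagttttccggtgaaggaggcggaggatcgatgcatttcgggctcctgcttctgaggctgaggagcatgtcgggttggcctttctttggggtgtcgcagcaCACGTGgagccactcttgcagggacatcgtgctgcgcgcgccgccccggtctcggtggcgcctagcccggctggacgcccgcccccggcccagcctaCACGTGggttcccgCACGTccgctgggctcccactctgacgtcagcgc
Hsd3b1: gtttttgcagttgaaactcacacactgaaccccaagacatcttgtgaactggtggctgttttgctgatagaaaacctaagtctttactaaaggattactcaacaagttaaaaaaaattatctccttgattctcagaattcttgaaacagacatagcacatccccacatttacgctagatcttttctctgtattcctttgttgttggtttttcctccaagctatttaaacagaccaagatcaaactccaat
The Ldha window holds the core 2 times on the plus and 3 times on the minus strand, the 2 former overlapping 2 of the latter in CACGTG palindromes. The window before the other Ldha start and the Hsd3b1 window hold neither motif. Of 32851 promoters of that length, 16.6% hold the hypoxia core and 4.08% the NR5A half-site, so a match is common and describes the letters only. Among the 9 sugar breakdown genes below, 5 hold the core in any of their windows (Pkm, Ldha, Aldoa, Pgk1 and Slc2a1). That count is per gene, and a gene such as Ldha has more windows than its first. The 16.6% is a share of promoters, not of genes, so the 5 of 9 cannot be compared with it.

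Ldha was the most neighboring-sided of all genes. Its level ran from 4.03 over a median of 7.68 to 8.43 in the 12 neighboring cells, and from 0 over 0.91 to 6.82 in the 12 non-neighboring cells. Every neighboring cell held Ldha reads, 9 of them more than any non-neighboring cell, while 6 non-neighboring cells held none. The means were 7.03 ± 1.49 and 2.23 ± 2.70, a difference of 4.81, above the pooled SD over cells of 2.18. Pool 4 gave 5.60 and pool 5 gave 4.02. Summed over cells, 579 reads (95% exact Poisson interval 533 to 628) stood against 26 (16.98 to 38.1). These intervals cover counting error only, since amplified reads are not independent molecules. After thinning, Ldha was still read in 12 neighboring and 3 non-neighboring cells. The oocytes averaged 3.78, below the neighboring cells, and without the 3 neighboring cells richest in oocyte RNA the difference was 4.49. Reads assigned to 2 Ldha pseudogenes numbered 4, and counts per gene do not show how many reads match both Ldha and a copy.

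The rest of sugar breakdown leaned the same way. The list used here joined 9 genes of glycolysis with 9 of cholesterol synthesis and uptake, and the split was made after the values were seen. All 9 glycolysis genes were higher in neighboring cells (beside 55.5% of all genes), and 4 of 9 passed 1.8 (beside 5.31%). Their median difference was 1.60 (pool 4 2.09, pool 5 1.47) beside 0.14 for all genes. Tpi1, triosephosphate isomerase, was read in 12 neighboring and 9 non-neighboring cells at 6.59 ± 1.30 and 3.75 ± 2.51, a difference of 2.84 (4.10 and 1.58 in the pools). The highest 6 neighboring cells lay above the highest non-neighboring cell. Eno1, enolase, differed by 2.23, but by 0.35 in pool 5. Pfkp, the platelet phosphofructokinase of the committing step, differed by 2.09 (2.13 and 2.06). Pkm, the pyruvate kinase, reached 1.60, Pgk1 1.29, Aldoa 0.90, Gapdh 0.47 and the glucose transporter Slc2a1 0.21. The spread over cells was wide for Eno1 and Pfkp, whose pooled SDs of 3.07 and 2.93 exceeded their differences. Oocytes held Tpi1 at 5.00, Eno1 at 5.70 and Pkm at 7.59, so of these 3 only Pkm was higher in oocytes than in neighboring cells. The 9 sterol genes had a median of 0.48, and none passed 1.8.

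**Figure D2:**
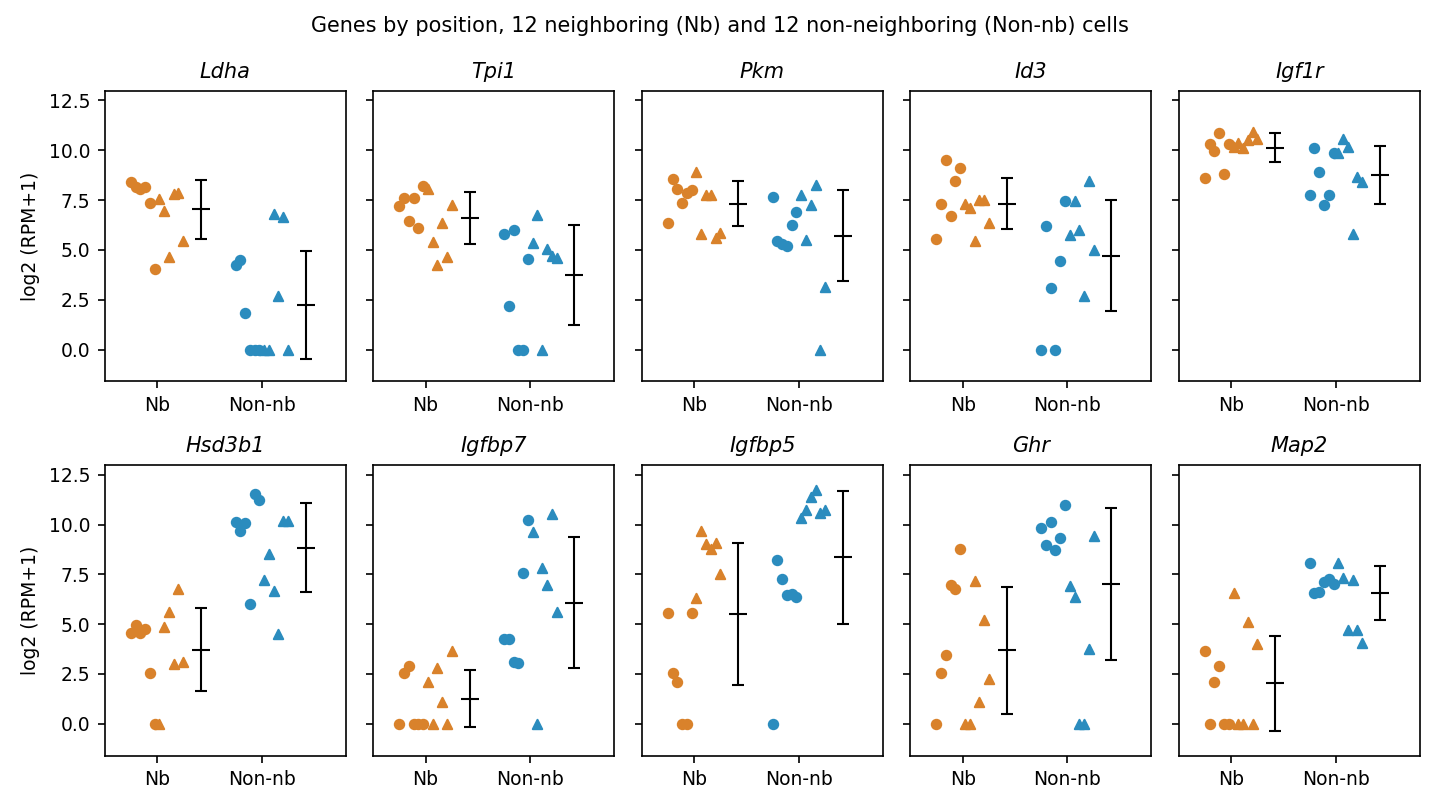
Level of Ldha, Hsd3b1 and other named genes in each granulosa cell as log2(RPM+1), neighboring and non-neighboring, 1 point per cell with its library pool marked by the point's shape and a bar at the mean ± SD of 12 cells. Ldha is read in 12 of 12 neighboring and 6 of 12 non-neighboring cells, and 9 non-neighboring cells hold more Hsd3b1 than any neighboring cell.

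Hsd3b1 was the most non-neighboring-sided gene. The neighboring cells ran from 0 over a median of 4.58 to 6.77, and the non-neighboring cells from 4.50 over 9.88 to 11.51. Every non-neighboring cell held it, and 9 of the 12 exceeded all neighboring cells, although the ranges overlapped. The means were 3.73 ± 2.09 and 8.83 ± 2.23, a difference of -5.10 with a pooled SD of 2.16, and the pools gave -6.21 and -3.99. Summed reads were 65 in neighboring and 1877 in non-neighboring cells, and after thinning 6 and 12 cells held the gene. The 5 close copies of the gene named Hsd3b2 to Hsd3b6, held 15 reads together. Hsd3b1 was in the study's own list of non-neighboring genes, which came from other, alcohol-fixed cells.

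Other steroidogenesis genes had smaller differences than Hsd3b1. Steroid synthesis and gonadotropin response had 11 genes above 4 in some cell. Of these, 4 were higher in neighboring cells (beside 55.5% of all genes) and 7 in non-neighboring cells. Hsd3b1 alone passed 1.8 (beside 2.31% on its side), and the median was -0.48 (-0.94 and -0.13 in the pools) beside 0.14 for all genes. Por, the electron donor of the steroid P450 enzymes, came next with 2.06 and 3.66. Cyp11a1, which cuts the cholesterol side chain, stood at 2.59 and 3.36. Star, which carries cholesterol into the mitochondrion, stood at 1.38 and 1.18. Hsd17b1, which makes estradiol from estrone, leaned to the neighboring side with 6.77 against 5.12. Fshr was 9.28 ± 1.37 and 9.76 ± 2.26, a difference of -0.48 well inside its pooled SD of 1.87, with pools of opposite sign (-1.84 and 0.89).

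The axis of insulin-like growth factors, which amplifies the response to follicle-stimulating hormone, divided in 2 directions. Igf1, the ligand made by granulosa cells, was present in all 24 cells at 9.41 ± 1.11 next to the oocyte and 8.39 ± 0.95 farther out, a difference of 1.02 (1.26 and 0.78 in the pools) about as large as its pooled SD of 1.03. Igf1r, its receptor, averaged 10.13 ± 0.73 and 8.76 ± 1.44, with 1.20 and 1.55 in the pools. Igf2r, which clears IGF2, was higher by 2.68 and the one member past 1.8 on the neighboring side, with oocytes at 6.02, above both positions.

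Of the 13 members, 7 lay on the neighboring side (beside 55.5% of all genes) and 6 on the non-neighboring side. Of the latter, 4 passed 1.8 (beside 2.31% of all genes), a pair of binding proteins and 2 genes of hormone response. Igfbp7, a secreted IGF-binding protein (chr5:77349240-77408041, minus strand), ran from 0 over 0.55 to 3.64 in neighboring cells and from 0 over 6.28 to 10.55 in non-neighboring cells. It was read in 6 neighboring and 11 non-neighboring cells, and 9 of the latter exceeded every neighboring cell. The difference was -4.82 (pools -4.49 and -5.15). Igfbp5 differed by -2.84 (-3.18 and -2.51), with 835 reads against 2132. Irs1, the adaptor that carries the signal of the insulin and IGF receptors, differed by -3.50 (-3.23 and -3.77), and Ghr, the growth hormone receptor, by -3.35 (-4.91 and -1.78). All 4 were patchy, with at least 1 non-neighboring cell at 0 for each and pooled SDs of 2.53 to 3.51. The median over the 13 genes was 0.54 (0 and 0.78 in the pools).

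Of 11 genes of theca and interstitial cells 8 were higher on the non-neighboring side, while 55.5% of all genes were higher on the neighboring side. Values of the 11 are given here beside the genes of the non-neighboring side. Of the 11, 10 were detected at each position, Lum being at 0 next to the oocyte and Tagln farther out. Their sum ran from 0 over 27.6 to 277 RPM in neighboring cells and from 0 over 82.2 to 1698 RPM in non-neighboring cells. The excess lay in 4 non-neighboring cells at 986 to 1698 RPM, while the other 8 held no more than 268 RPM. Col1a2, Col1a1, Col3a1 and Pdgfra had differences of -3.14, -2.24, -2.20 and -1.88 and were the 4 of 11 past 1.8 (beside 2.31% of all genes). The smooth muscle genes Myh11 (1.41) and Tagln (0.47) and Star (0.20) lay on the neighboring side, and the median was -1.40. Cyp17a1, the defining enzyme of theca androgen synthesis, was read in 1 neighboring and 2 non-neighboring cells. Without those 4 cells, Hsd3b1 had a difference of -4.57, Map2 one of -4.85, Ghr -3.86, Igfbp7 -3.34, Irs1 -2.81 and Igfbp5 -2.67. In the 8 cells left, Hsd3b1 ran from 21.6 over 588 to 1153 RPM. The basement membrane collagens Col4a1 and Col4a2, at -2.05 and -1.98 over all cells, were at -0.04 and -0.53 without them.

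The neighboring cells held more RNA of oocyte genes. Over 14 genes that oocytes transcribe, the sum per cell ran from 61.3 over 987 to 5795 RPM in neighboring and from 23.3 over 81.5 to 1833 RPM in non-neighboring cells, with 1733 to 11184 RPM in primary and 25272 to 35505 RPM in secondary to antral oocytes. The ranges of the granulosa positions overlapped. On the log2 scale the sums averaged 9.82 ± 2.04 and 6.75 ± 1.70, a difference of 3.08 (3.70 in pool 4, 2.45 in pool 5). Against 10% of the median oocyte, 25564 RPM, 3 of 12 neighboring cells (25.0%, exact Clopper-Pearson interval 5.49 to 57.2%) and 0 of 12 non-neighboring cells (up to 26.5%) had a mixed profile. These intervals cover counting over these cells only, not other follicles. Without those 3 cells the difference was 2.24.

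**Figure D3:**
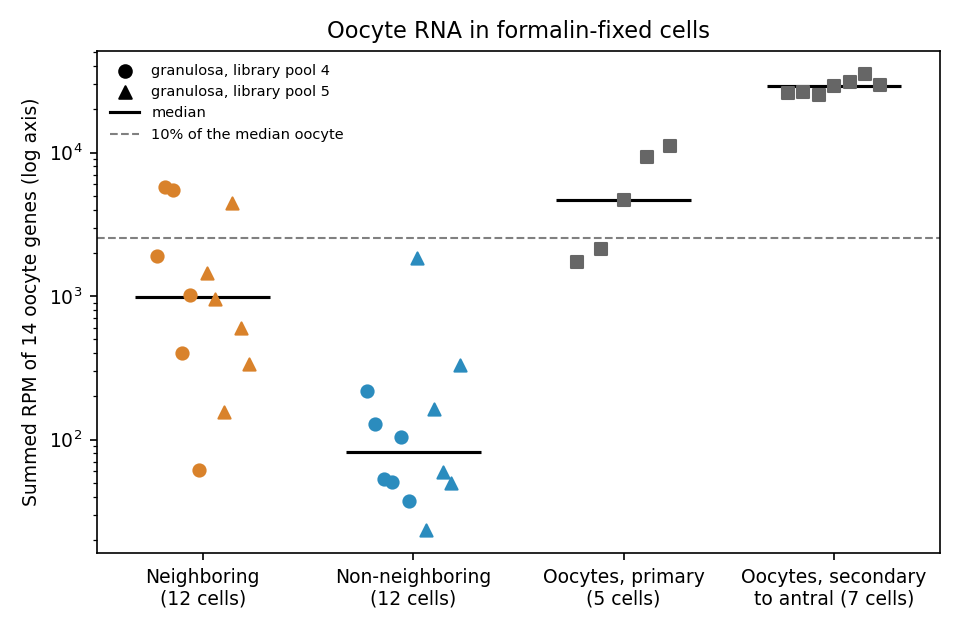
Summed RPM of 14 oocyte genes per cell on a log axis, for neighboring and non-neighboring granulosa cells and for primary and secondary to antral oocytes of the same fixation. Neighboring cells reach 5795 RPM and non-neighboring cells 1833 RPM, while the 7 secondary to antral oocytes sit between 25272 and 35505 RPM.

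All 14 oocyte genes were higher in neighboring cells (beside 55.5% of all genes) and 11 passed 1.8 (beside 5.31%). Their median was 2.57 (3.77 and 1.25 in the pools). Gdf9, the growth factor by which the oocyte addresses its granulosa cells, ran from 2.33 over 8.11 to 10.89 in neighboring and from 2.68 over 3.98 to 9.10 in non-neighboring cells. Each of the 24 cells held at least 1 Gdf9 read, and the neighboring minimum was lower than the non-neighboring one. Its difference was 2.67 (2.90 and 2.44), with 1493 reads against 123. Bmp15, its partner, differed by 1.91 (2.89 and 0.92). Zp2, a protein of the zona pellucida, differed by 2.49 and was read in 11 neighboring and 6 non-neighboring cells. Obox5, an oocyte homeobox gene, gave 294 reads in 6 neighboring cells and 3 reads in 1 non-neighboring cell. H1foo, the linker histone of the oocyte, differed by 3.49, and Oosp1, an oocyte-secreted protein, by 4.06. Of the 748 genes past 1.8 on the neighboring side, 485 (64.8%) had a higher mean in oocytes than in neighboring cells and 263 had not, and over all genes the share was 68.8%. The part of oocyte RNA in the position difference of a given gene was not tested.

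Among the 15 most neighboring-sided genes, 12 were higher still in oocytes, beside 68.8% of all genes. The 3 that were not are Ldha, Lig1 and Alyref. Lig1, the DNA ligase that joins fragments of the lagging strand, was read in 12 neighboring and 6 non-neighboring cells at 6.71 ± 1.92 and 2.25 ± 2.58, a difference of 4.46 (5.36 and 3.57), with oocytes at 5.65. Alyref, an mRNA export factor, differed by 3.92 (6.23 and 1.62), and 9 neighboring cells exceeded all non-neighboring cells. Rfpl4, a ring-finger protein of the oocyte, stood at 4.52 with oocytes at 8.42. Slc45a3, a sugar transporter relative, differed by 4.09, with oocytes at 9.11.

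The 15 most non-neighboring-sided genes were mostly low in oocytes, 13 of them with a mean under 4 there. Map2, a microtubule-associated protein, ran from 0 over 1.05 to 6.58 in neighboring and from 4.06 over 7.05 to 8.09 in non-neighboring cells. All 12 non-neighboring cells and 6 neighboring cells held it, and the difference was -4.53 (-5.66 and -3.39) with a pooled SD of 1.93. Me2, the mitochondrial malic enzyme, was read in 10 neighboring and 12 non-neighboring cells and differed by -3.48 (-5.20 and -1.77). Ust, a sulfotransferase of matrix sugars, gave 12 reads against 259. Lix1l differed by -3.57 (-2.72 and -4.41). Colec12, a scavenger receptor, differed by -3.42 (-4.50 and -2.33).

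Of 13 receptors and mediators of the oocyte's growth factors, 8 were higher in neighboring cells, a share near the 55.5% of all genes. Of the 13, 2 passed 1.8 (beside 5.31% of all genes). The receptors Bmpr1b (10.73 and 10.40) and Bmpr2 (10.34 and 9.37) were among the highest, and Smad4, the shared mediator, was at 7.39 and 7.63. Tgfbr2 (0.92 and 0.70) and the target gene Id1 (0.84 and 1.62) were low. Id3, a classic target gene of BMP signalling that blocks bHLH factors, was read in 12 neighboring and 10 non-neighboring cells at 7.33 ± 1.26 and 4.71 ± 2.78, a difference of 2.62 that came mainly from pool 4 (4.25 against 0.99). Oocytes held Id3 at 4.94. Smad7, the inhibitory SMAD, differed by 2.90, but by 5.78 in pool 4 and 0.02 in pool 5. The median over the 13 genes was 0.22. In the inhibin and activin axis, Tgfbr3, the inhibin co-receptor betaglycan, was the one gene of 8 past 1.8, at 4.32 ± 2.88 and 6.25 ± 3.01 (-0.74 and -3.13 in the pools). Inhba, the activin βA subunit, stood at 1.76 and 3.54.

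Of 25 genes of the cell cycle, 20 were higher in neighboring cells (beside 55.5% of all genes), 6 passed 1.8 (beside 5.31%) and 1 passed it the other way (beside 2.31%), with a median of 0.93 (1.03 and 0.80 in the pools). Birc5, which acts at the centromere and spindle in mitosis, stood at 1.56 and 3.30 in the pools and 2.43 over both. Plk1, a mitotic kinase, differed by 2.25 (2.60 and 1.90) and Aurka, another, by 1.95 (2.90 and 1.00). Pcna, the sliding clamp of DNA replication, was at 8.05 ± 1.57 and 5.98 ± 2.96 (3.41 and 0.72). The helicase subunits Mcm2 and Mcm3 differed by 2.46 and 2.19, and Mcm2 turned to -0.44 in pool 5. Ccnd2, the D cyclin of granulosa cells, had a small but even difference of 0.93 (1.01 and 0.85), with 4 neighboring cells above all non-neighboring cells, whereas Ccnd3 was at -1.83. Top2a and Mki67 differed by 0.21 and 0.65. Oocytes also held cell cycle mRNAs, with Birc5 at 8.77, Plk1 at 6.45 and Aurka at 6.05, each above the neighboring mean, and Pcna at 6.92, below it.

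Of 12 genes of contact with the oocyte, 10 were higher in neighboring cells (beside 55.5% of all genes), with a median of 0.47. Gja1, the connexin 43 that couples granulosa cells to each other, hardly differed (11.17 ± 0.69 and 10.97 ± 0.78). Gja4, the connexin 37 that oocytes contribute to their junctions, passed 1.8 with 2.53, from 7 neighboring cells and 1 non-neighboring cell, and oocytes held it at 7.25. Myo10, the myosin of filopodia, and Fscn1, fascin, which bundles their actin, differed by 1.18 and 0.37. Among 9 genes of Notch signalling none passed 1.8 (beside 5.31% and 2.31% of all genes on the 2 sides), and the median was 0.53.

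The chromatin and cytoskeleton genes that the study followed showed small or uneven differences in these cells. Of 15 genes of the polycomb complexes, which silence genes through histone H3 methylation, and of other chromatin factors, 9 were higher in neighboring cells, a share near the 55.5% of all genes. Eed, the core subunit that reads the mark, was higher by 2.84 (4.27 and 1.40), and its oocyte level was 6.23. Suz12, Ezh2 and Smarca5 differed by 0.75, 0.93 and 0.83, Jarid2 by -0.19, and Nsd1 by 0.42 with pools of opposite sign (-0.76 and 1.60). Ogt, the O-GlcNAc transferase, passed 1.8 on the non-neighboring side (-1.83), and Phf21a was just short of it (-1.68). Of 7 genes of cytoskeleton, transition and proliferation, Tgfbr3 passed 1.8, only Trp53 was higher in neighboring cells (1.12), and the median was -1.07 (-0.74 and -0.14 in the pools). Flna, the actin cross-linker filamin A, differed by -1.44, the kinase Abl2 by -1.07, Wnt4 by -0.60 and Enah by -0.15.

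Cell death genes did not pass 1.8 in any of 12 cases (beside 5.31% and 2.31% of all genes on the 2 sides), with a median of -0.62. Among 16 immediate early and stress genes the median was 0.64, and Fos, the early response factor, passed with reads in 4 neighboring cells, all of pool 4, and 0 reads in non-neighboring cells. The constitutive chaperones Hsp90ab1 (10.38 and 9.96) and Hspa8 (9.17 and 8.30) were high, and the inducible Hspa1a (0.86 and 0.56) and Dnajb1 (2.93 and 1.36) were low. Of 12 matrix genes, the 2 collagens named above passed 1.8 (beside 2.31% of all genes on that side) and the median was -0.35. Vcan, the versican of the follicle, was at 7.60 and 7.99.

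**Figure D4:**
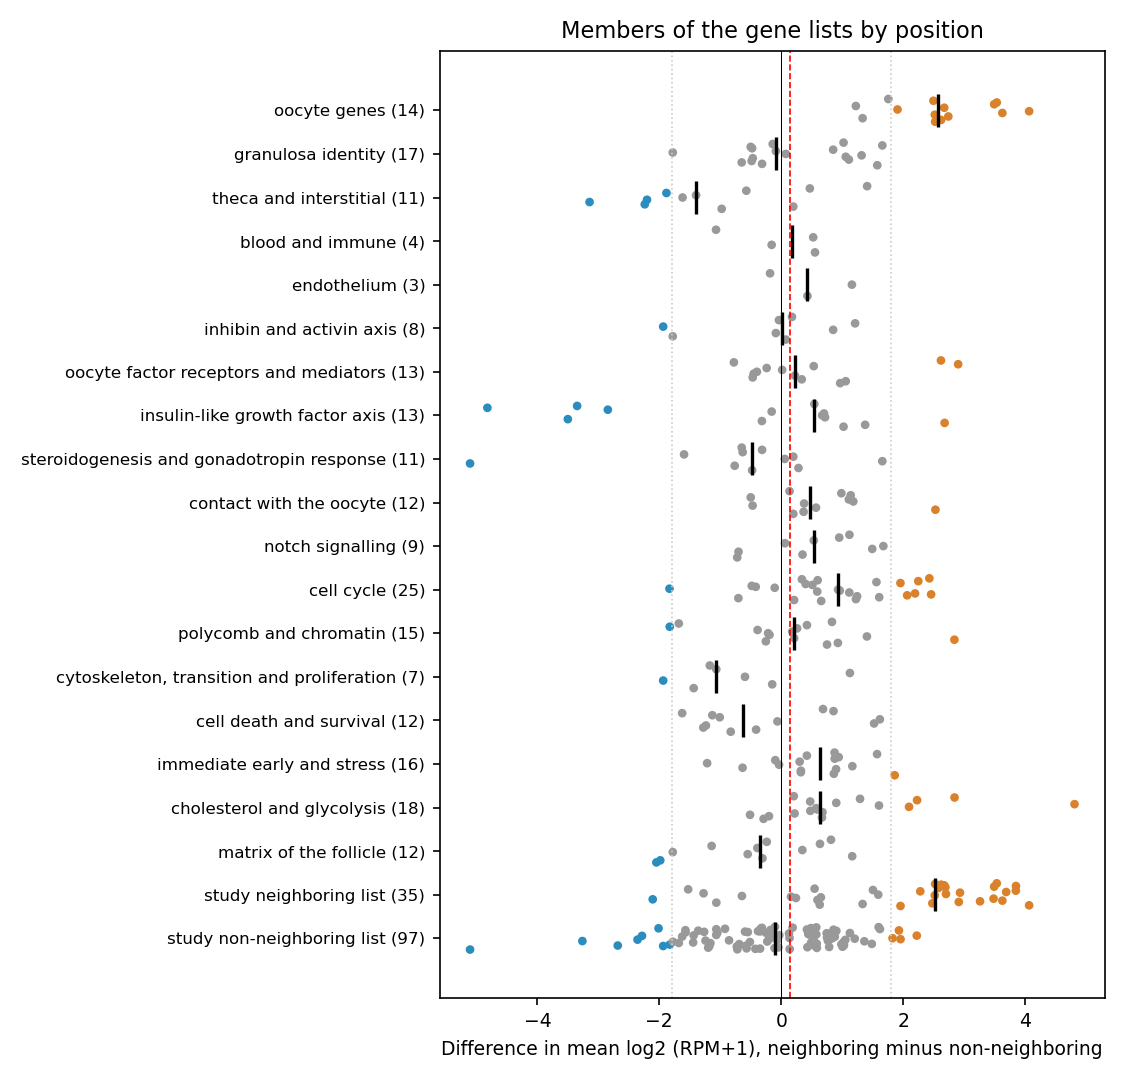
Difference between positions for each member of the gene lists (x axis, log2(RPM+1), neighboring minus non-neighboring), 1 row of points per list with its median, and the size of 1.8 and the all-gene median of 0.14 drawn as lines. Oocyte genes (median 2.57) sit to the neighboring side, theca and interstitial genes (-1.40) to the other, and granulosa identity genes (-0.09) around 0. Glycolysis genes share a row with cholesterol genes, with a joint median of 0.63.

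The study's own position lists had been drawn up on alcohol-fixed cells amplified with SC3-seq, so the formalin-fixed cells took no part in them. Of 35 genes on the neighboring list, 30 were higher in neighboring formalin-fixed cells (beside 55.5% of all genes). By size, 21 passed 1.8 (beside 5.31%) and 1, N4bp2, passed it the other way (beside 2.31%). The median was 2.52 (2.60 and 1.47 in the pools). Before drawing its lists the study had left out granulosa cells with a mixed oocyte profile, judged by another rule. The 3 mixed neighboring cells defined above were kept here, and without them the median was 1.51. Of the 35, 30 had a higher level in oocytes than in neighboring cells (beside 68.8% of all genes), with a median of 2.55, and the other 5 had a median of 1.33. Of 97 genes on the non-neighboring list, 8 passed 1.8 on their own side (beside 2.31% of all genes) and 4 on the opposite side. Among the former were Hsd3b1, Tgfbr3, Ogt, Pcdh7, Pop4, Ing4 and Atp1b2, and the opposite 4 were Mapk9, Wasl, Ankrd32 and Rab11fip5. The median of the 97 was -0.11 (-0.21 and -0.15) beside 0.14 for all genes.

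Position was also labelled in other sets of LCM granulosa samples, and 4 of these were compared. Cells amplified with SMART-Seq v4, with or without DRaqL, and with LCM-seq also carry position labels and were left out. The 4 sets compared were all alcohol-fixed and all other samples. They were 57 SC3-seq cells, 34 DRaqL-Smart-seq2 cells, 70 further DRaqL-Smart-seq2 cells from 1 ovary of a proestrus mouse, and 14 pools of 10 cells. These tables were made and scaled separately, so only directions and sizes within each are set side by side. Per the study, the methods it compared, formalin and alcohol ones alike, used sections of a single ovary. Some of these sets may therefore share an ovary with the formalin-fixed cells, and they are not independent repeats. Ldha was higher in neighboring samples in every set, by 1.31, 2.03, 1.60 and 1.70 in that order, against 4.81 here. Hsd3b1 differed by -3.09, -6.90, -3.20 and -5.86, so -5.10 here fell within that range. Both genes thus had 1 direction in all 5 sets compared. Gdf9 differed by 3.34, 2.62, 0.94 and 5.99 around 2.67 here. Glycolysis had medians of 0.48, 1.44, 1.10 and 1.01 beside 1.60. Map2 was barely different with SC3-seq (-0.06) and at -1.99, -2.22 and -2.35 elsewhere. Igfbp7 was not one-sided, at -3.46 and -3.04 in the 34 cells and the pools but -0.27 and 0.15 in the SC3-seq and single-ovary cells. Ghr, Irs1 and Igfbp5 lay on the non-neighboring side in all 5 sets, Ghr at -1.49, -0.18, -1.75 and -2.86. Id3 (0.71, 0.92, 1.03 and 0.38) and Ccnd2 (1.09, 0.66, 1.31 and 0.26) lay on the neighboring side in all 5. Igf1 too had both signs, -0.23 in SC3-seq cells and 0.85, 0.66 and 1.87 in the others.

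**Figure D5:**
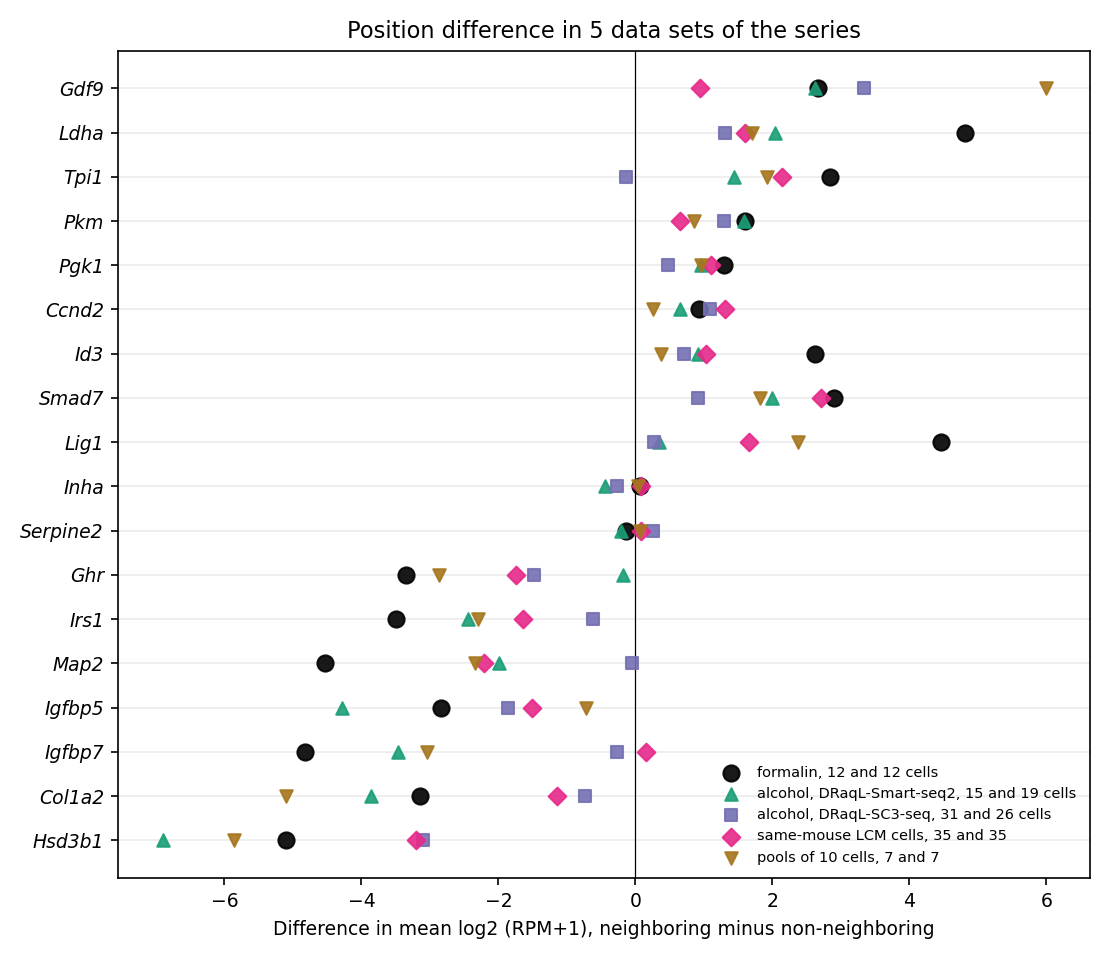
Difference between positions (log2(RPM+1), neighboring minus non-neighboring) of named genes in the formalin-fixed cells and in 4 alcohol-fixed sets, 1 colour and shape per set. Ldha and Gdf9 lie on the neighboring side and Hsd3b1 on the non-neighboring side in all 5 sets, whereas Igfbp7 has both signs.

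Over all genes, 6.17% were on the neighboring side in all 5 sets and 6.08% on the non-neighboring side. Of the 15 most neighboring-sided genes of the formalin-fixed cells, 14 were on that side in all 4 other sets, Alyref being the exception, and 3 of the 15 (Oosp1, Gm15698 and Fbxw14) are on the list drawn from the SC3-seq set. Of the 15 most non-neighboring-sided genes, 6 were. Over all genes on the same side here, those shares were 11.1% and 13.7%. The median of the neighboring list was 2.33, 1.73, 0.91 and 3.90 in the other sets, and that of the non-neighboring list was -2.24 in SC3-seq, the set it was drawn from, and 0.24, -0.37 and -0.25 in the rest.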

How the data were processed

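The authors trimmed reads with fastp 0.20.0 and cutadapt 1.16, mapped them with HISAT2 2.1.0 to the mouse genome (GRCm38) and assigned them to genes with HTSeq 0.10.0, counting reads within 10 kb of a 3′ end, per the study's methods and the submitters' processing notes. The deposited tables hold raw read counts per gene and per ERCC spike-in for each cell, without molecular identifiers. From these counts RPM was computed over 22060 protein-coding genes of 45905 in the table. The other genes took 18.1% to 30.0% of the reads. A pseudocount of 1 was used on the log2 scale, which understates differences of low genes, and position differences are differences of mean log2(RPM+1). Depth, from 55319 to 873319 reads per cell, sets what can be seen, and a gene at 0 in a cell may hold up to 3 reads' worth of RNA.

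Groups came from the class label. Per the study a single ovary gave the sections for the methods it compared, and the follicle of a cell is not given in the sources used here. No model was fitted, and edgeR 4.0.16 served only for TMM factors. Thinning drew 55319 reads per cell with seed 20230918, and the size rule was tested on simulated data. The members, lists and rules were chosen with earlier results of these data known. Named are the markers Gdf9, Igf1 and Inha, the study's follow-up genes, the 15 protein-coding genes with the most extreme difference on each side among those with a mean of at least 4 at 1 or both positions and the same sign in both pools, every list member past 1.8, the 3 highest members of each list and the 5 most extreme of each study list, 118 in all. Insl3 of the theca list had no matching symbol, and a few named genes are not reported here. Gene positions are from GENCODE vM21 (GRCm38) and promoters from RefSeq (GRCm38.p6). Python 3.11.15 was used. Alternatives covered the pseudocount, the scaling, depth, the expression minimum, each pool alone and each cell left out in turn. Leaving out the cells with a mixed profile or the 4 cells rich in theca RNA was chosen after seeing the data.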

Additional observations from a re-analysis of the deposited data

Results flagged for a closer look

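In 32 groups of 6 cells (1 position, 1 pool and 1 quality measure each), 3 cells stood far from the others of their group by Dixon's ratio, the gap to the nearest cell divided by the whole range, against a critical value of 0.625. Chance alone marks about 1 group in 20. Replicate 8 of the neighboring cells in pool 5 gave 0.188 gene reads per spike-in read, where the nearest cell gave 1.00 (ratio 0.670 on the log2 scale). Replicate 10 of the non-neighboring cells in pool 5 had 6.38% of its reads on mitochondrial protein-coding genes, where the nearest had 3.82% (ratio 0.656). Replicate 12 of the non-neighboring cells in pool 5 had 3.76% of its reads on Camk1d, its most abundant gene, where the top gene of the nearest cell took 1.159% (ratio 0.830). Neither the count of genes past 1.8 nor the lists were recomputed with all 3 left out together, and leaving each out alone is part of the ranges given next.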

How the results depend on the processing

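No paired analysis was possible because no test was made and replicate numbers only follow accession order. The number of genes past 1.8 was the value most tied to processing. Against 748 and 326 (neighboring and non-neighboring side), there were 2076 and 967 with a pseudocount of 0.1, 80 and 27 with 10, 486 and 188 with a mean of at least 4 at either position, 1867 and 935 in pool 4 alone and 1252 and 1068 in pool 5 alone. On the non-neighboring side the count was 539 after thinning and 545 without the 4 non-neighboring cells rich in theca RNA. The neighboring share of these genes, 69.6%, was 54.0% in pool 5 and 57.02% without those 4 cells. The median of the study's neighboring list, 2.52, was 3.57 and 1.44 with the other pseudocounts, 1.47 in pool 5 and 1.51 without the mixed cells. The log2 ratio of gene to spike-in reads differed by -0.25 and reversed to 0.23 in pool 5, and Mcm2 reversed to -0.44 there. Cells with a mixed profile numbered 6 at a limit of 5% and 2 at 20%. The causes were not tested, apart from fewer cells in a pool and a smaller or larger pseudocount by construction.

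With 1 cell left out at a time, the gene counts ranged from 690 to 882 and from 327 to 390, the oocyte RNA difference from 2.83 to 3.45, detectable genes from 528.3 to 919.1, the spike-in ratio from -0.35 to -0.02, the resemblance of cells from 0.003 to 0.011, and the list medians from 2.101 to 2.66 and from -0.22 to -0.03. Ldha ranged from 4.61 to 5.23 and Hsd3b1 from -5.50 to -4.76. Of 3894 values of 118 named genes under all alternatives, 40, in 23 genes, had the other sign, among them 1 of a gene past 1.8 (Mcm2). A cell left out moves a mean of 12 too little for the spread over cells to test it. TMM scaling gave an all-gene median of 0.17 in place of 0.14. Depth limits low genes most, and the in-line index goes with position in every difference.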

Other observations

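Long non-coding genes gave a like picture. Among 127 with a mean of at least 4 at 1 or both positions, 9 were higher by more than 1.8 in neighboring and 5 in non-neighboring cells. Of 5004 protein-coding genes of that level, 486 and 188 were. All of the former had 1 sign in both pools, as had 1028 of all 1074 protein-coding genes past 1.8, so that sign adds little. The median was 0.24 beside 0.28 for protein-coding genes of that level. Gm29103, C130071C03Rik and Gm26618 stood at 3.80, 3.44 and 3.29, and Dleu2, the host transcript of a microRNA pair, at 2.38. On the other side 5031425E22Rik was at -2.41 (8 and 11 cells, pools -4.23 and -0.59), 5530601H04Rik at -2.29 (-2.70 and -1.88) and Tsix, the antisense partner of Xist, at -2.12 (9 and 12 cells). Whether counting used strand was not given in the sources used here, so reads of antisense pairs such as Tsix and Xist cannot be told apart.

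The other main subunit of lactate dehydrogenase, Ldhb, also gave more reads on the neighboring side, a sum that does not allow for depth. Ldhb had 1183 and 310 reads, beside 579 and 26 for Ldha.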
